A study of Mus musculus with 21 samples.

Results

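Gna14, Rnf128, Enpp1, Nags, Aldh1a7, Spon2, Arhgef25, Cecr2, Parm1 and Pde3b are 10 of the 30733 genes counted in mouse bone marrow progenitors with and without Stag2. They were picked by name, and they were picked because their counts were much lower in CFU-E of the Stag2 knockout than in wild-type CFU-E. That contrast is therefore given below as a description of each gene, and no test of it is read. All 10 had a count in some library.

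The study measured RNA in 21 libraries of sorted cells from Stag2 knockout (genotype Stag2KO, here KO) and wild-type (Stag2WT, here WT) marrow that had been depleted of lineage-positive cells. CFU-E, the late erythroid progenitors that depend on erythropoietin, gave 4 KO and 3 WT libraries. LSK cells, the lineage-negative fraction that holds stem and multipotent progenitor cells, gave 3 KO and 4 WT libraries, and GMP, the granulocyte and monocyte progenitors, gave 4 KO and 3 WT libraries. CFU-E and GMP libraries were sequenced at the 3′ ends of transcripts and LSK libraries over whole transcripts, so LSK levels are not set against the others. The sources used here do not give how the Stag2 deletion was made, the age of the animals, or whether libraries of a group came from separate animals, so the spread between libraries may be partly technical. No treatment is named for any group.

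Total counts were 3654667 to 5550165 in CFU-E KO and 3737659 to 5210879 in CFU-E WT libraries, 28697123 to 32196233 in LSK KO and 22813333 to 32165806 in LSK WT libraries, and 1250683 to 3471881 in GMP KO and 3732769 to 4401993 in GMP WT libraries. Stag2 itself stood at 64.2 ± 15.7 CPM (counts scaled to library size) in CFU-E KO (SD, n = 4) and 140.7 ± 17.7 in CFU-E WT (n = 3), with a log2 fold change of -1.13 ± 0.205 (SE, edgeR adjusted p = 0.0143). LSK KO libraries held 72.3 ± 6.61 CPM of it (n = 3) against 166.1 ± 16.9 in LSK WT (n = 4), with adjusted p = 0.027. GMP KO libraries held 106.0 ± 30.4 CPM of Stag2 (n = 4) against 147.3 ± 51.2 in GMP WT (n = 3), and the groups overlapped (edgeR adjusted p = 0.36). GMP KO 4 held 150.2 CPM, above GMP WT 2 at 143.1 and GMP WT 3 at 98.28. The loss of Stag2 is thus not shown by the counts of the libraries labelled GMP KO. The CFU-E libraries, where Stag2 was lower in KO, were also sequenced at 3′ ends, and the cause of the overlap in GMP was not tested. CFU-E libraries of both genotypes carried erythroid markers, with summed levels of 8696 to 9284 CPM in KO and 7595 to 8638 CPM in WT. Levels throughout are CPM scaled by TMM factors, which equalise library composition within the libraries compared.

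STAG2 is a subunit of cohesin, the ring complex that holds sister chromatids together and that extrudes and anchors chromatin loops. A ring carries either STAG2 or its paralog STAG1, and STAG2-containing cohesin is known for shaping contacts between enhancers and promoters in blood progenitors. The 10 genes do not form a pathway. GNA14 is an alpha subunit of the Gq class of G proteins, which link surface receptors to phospholipase C beta, ARHGEF25 is a guanine nucleotide exchange factor that Gq class subunits activate, and PDE3B is a phosphodiesterase that breaks down cyclic AMP. ENPP1 is an ectoenzyme that splits extracellular ATP to AMP and pyrophosphate, SPON2 is a secreted matrix protein of the spondin family, and PARM1 is a mucin-like membrane glycoprotein. NAGS makes N-acetylglutamate, the activator of the first step of the urea cycle, and ALDH1A7 is a cytosolic aldehyde dehydrogenase close to ALDH1A1. RNF128 is a transmembrane ubiquitin ligase known from T cell anergy, and CECR2 is a bromodomain protein of ISWI chromatin remodelling complexes.

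The promoters of 6 of the 10 genes were matched by symbol in RefSeq (GRCm38.p6), and 4 of them are printed here because they show windows with 4, 1 and 0 matches to the E-box CANNTG upstream of genes whose counts were low together. They are the 250 bases before the annotated start on the gene's own strand, Gna14 at chr19:16435417-16435666 on the plus strand, Nags at chr11:102145263-102145512 on the plus strand, Aldh1a7 at chr19:20727557-20727806 on the minus strand and Enpp1 at chr10:24712160-24712409 on the minus strand. Capitals mark matches, on either strand, to CANNTG or to the KLF1-type box CCNCNCCC.
Gna14: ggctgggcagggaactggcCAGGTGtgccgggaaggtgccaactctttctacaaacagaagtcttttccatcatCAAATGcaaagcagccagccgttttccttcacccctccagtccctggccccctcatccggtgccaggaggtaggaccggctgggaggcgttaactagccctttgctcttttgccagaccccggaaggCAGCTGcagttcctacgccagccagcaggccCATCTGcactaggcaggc
Nags: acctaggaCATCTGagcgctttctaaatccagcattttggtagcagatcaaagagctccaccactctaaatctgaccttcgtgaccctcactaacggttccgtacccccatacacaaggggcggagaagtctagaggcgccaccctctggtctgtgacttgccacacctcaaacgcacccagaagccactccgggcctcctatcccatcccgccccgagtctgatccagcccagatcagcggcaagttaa
Aldh1a7: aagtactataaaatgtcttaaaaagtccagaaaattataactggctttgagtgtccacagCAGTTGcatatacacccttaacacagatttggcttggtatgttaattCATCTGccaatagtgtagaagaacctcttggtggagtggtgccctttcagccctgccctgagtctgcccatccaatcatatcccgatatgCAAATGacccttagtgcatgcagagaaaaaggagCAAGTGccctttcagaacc
Enpp1: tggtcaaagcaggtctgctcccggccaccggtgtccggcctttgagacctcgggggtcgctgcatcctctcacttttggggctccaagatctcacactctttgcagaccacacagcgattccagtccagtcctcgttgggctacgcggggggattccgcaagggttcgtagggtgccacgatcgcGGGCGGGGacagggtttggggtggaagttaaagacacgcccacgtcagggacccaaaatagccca

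The upstream windows had little in common. G and C made up 43.2% of the Aldh1a7 window, 55.6% of the Nags window, 60% of the Gna14 window and 61.2% of the Enpp1 window, and 63.2% and 65.2% of the Rnf128 and Parm1 windows, against a median of 52.4% over 32851 mouse promoters. The ratio of observed to expected CpG ran from 0.09 in Aldh1a7, which holds 1 CpG, to 0.87 in Rnf128, which holds 21, against a median of 0.37. CANNTG was present in 5 of the 6 windows and in 66.2% of all promoters, with 4 matches in Gna14 that begin 231, 176, 49 and 18 bases before the start and 4 in Aldh1a7 that begin 190, 143, 53 and 19 bases before it. CCNCNCCC was present in 2 of the 6, Enpp1 and Parm1, and in 45.9% of all promoters. The GATA-type letters AGATAA and TGATAA were in 0 of the 6 windows and, counting either, in 16.6% of all promoters, the RUNX-type letters TGTGGT in 1 (Enpp1) and in 14%, and TGACTCA, whose reverse complement is TGAGTCA, in 0 and in 4.46%. These are matches of letters in short windows and say nothing of binding. The start that RefSeq gives for Gna14 was not matched by a transcript of the annotation at hand, so its window may not lie at the start used in these cells.

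In CFU-E KO the 10 genes together took 74.95 to 85.64 CPM of the total, against 397.2 to 492 in CFU-E WT. Each of the 10 lay lower in every KO library than in every WT library, and the level left in KO ran from 2.55% of the WT mean for Gna14 to 28.2% for Arhgef25. The genes had been described as nearly lost, which these values do not bear out for Arhgef25, for Spon2 at 21.1% or for Aldh1a7 at 16.3%. All 10 were past the threshold (edgeR, adjusted p under 0.05) among the 0.708% of 10170 tested genes that were called lower in CFU-E KO, which is what the choice of genes fixes. In 5.66% of tested genes every CFU-E KO library was below every WT library. In bulk RNA, fewer cells that express a gene and less RNA per cell cannot be told apart.

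**Figure D1:**
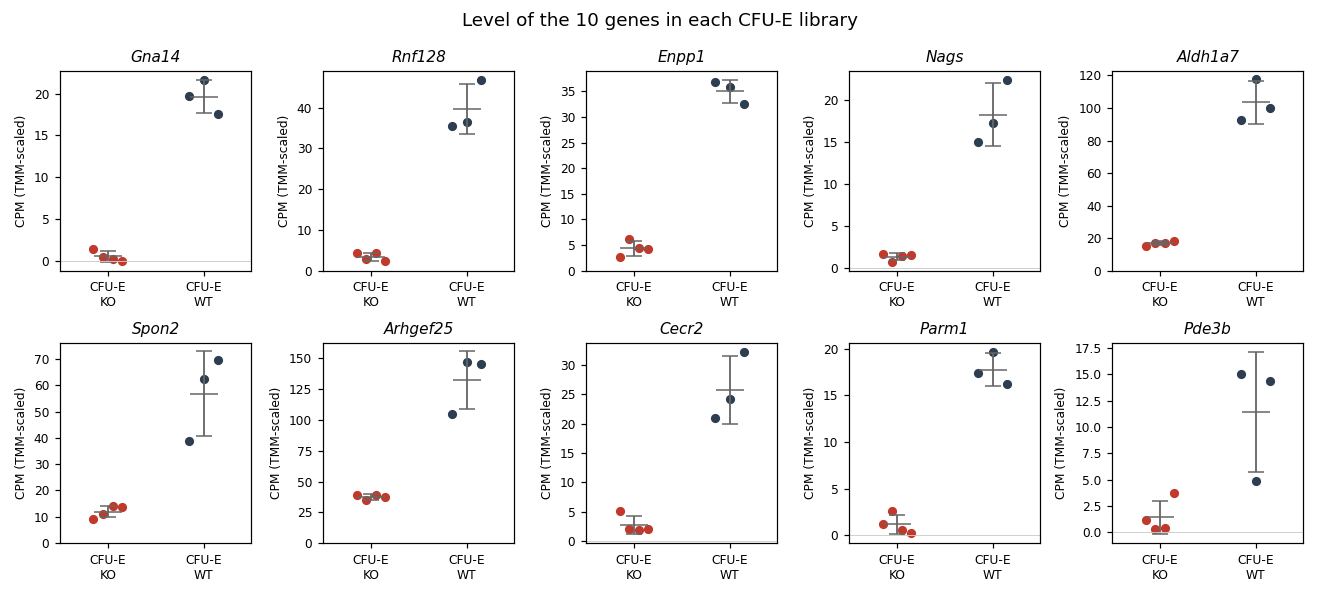
Level of each of the 10 genes in the CFU-E libraries, in TMM-scaled CPM on a linear axis that differs between panels, with KO libraries (red, n = 4) to the left of WT libraries (dark blue, n = 3). The wide bar is the mean and the thin bar the SD; in no panel do KO and WT points overlap, and the narrowest separation is that of Pde3b, where KO 4 has 3.725 CPM and WT 2 has 4.864 CPM.

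Among the signalling genes, Gna14 was the lowest. It had 7, 2, 1 and 0 counts in CFU-E KO 1 to 4 (1.427, 0.3737, 0.2063 and 0 CPM), against 84, 111 and 65 counts in CFU-E WT 1 to 3 (19.79, 21.6 and 17.58 CPM). Of the KO libraries, 3 were below the level of 3 counts, which lies at 0.541 to 0.821 CPM in these libraries, and the WT libraries were close to each other. This is a log2 fold change of -4.94 ± 0.478 (SE), or 30.6-fold lower. CFU-E libraries were sequenced on 2 flow cells, with KO 1, WT 1 and WT 2 on the first and KO 2 to 4 and WT 3 on the second, and the KO effect on Gna14 was -3.85 on the first and -6.19 on the second. Each flow cell holds a single library of 1 genotype, KO 1 or WT 3, so leaving out KO 1 (-6.19) or WT 3 (-3.84) is nearly the same fit as the other flow cell alone, and the size of the fall, though not its sign, rests on these libraries.

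Arhgef25 kept the largest part of its WT level among the 10. It stood at 39.14, 34.57, 38.78 and 37.25 CPM in CFU-E KO 1 to 4, against 105.1, 146.9 and 145.8 CPM in CFU-E WT 1 to 3. KO libraries were within 5 CPM of each other, and the lowest WT library lay 2.68 times above the highest KO library. Its log2 fold change was -1.85 ± 0.167, and -1.71 and -1.99 within the first and second flow cells. Pde3b had the narrowest separation of the 10. Its levels were 1.223, 0.3737, 0.4125 and 3.725 CPM in CFU-E KO 1 to 4, against 15.08, 4.864 and 14.34 CPM in CFU-E WT 1 to 3. The library WT 2 was well below the other WT libraries and near KO 4, on 25 counts, and the gap between the groups was a factor of 1.31. The fitted log2 fold change was -3.23 ± 0.653, and -2.99 and -3.38 within the first and second flow cells. It was -4.05 without KO 4 and between -2.91 and -3.45 with any other single library left out.

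The ectoenzyme gene Enpp1 had 2.65, 6.166, 4.538 and 4.257 CPM in CFU-E KO 1 to 4, against 36.75, 35.8 and 32.46 CPM in CFU-E WT 1 to 3. WT libraries differed from each other by little (coefficient of variation 6.44%), and all were over 5 times the highest KO library. Enpp1 had a log2 fold change of -3.09 ± 0.284, with -3.78 and -2.69 within the first and second flow cells, -2.69 without KO 1 and -3.76 without WT 3. Spon2, the secreted spondin, had 9.174, 11.21, 14.03 and 13.57 CPM in CFU-E KO 1 to 4, against 38.87, 62.26 and 69.53 CPM in CFU-E WT 1 to 3. Here the WT libraries spread more than for Enpp1, with WT 1 the lowest. For Spon2 the log2 fold change was -2.44 ± 0.220, and -2.48 and -2.43 within the flow cells. Parm1 had 1.223, 2.616, 0.6188 and 0.266 CPM in CFU-E KO 1 to 4, which is 6, 14, 3 and 1 counts, against 17.43, 19.65 and 16.23 CPM in CFU-E WT 1 to 3. Its WT level was even and its KO level within a few counts of 0 apart from KO 2. Parm1 had a log2 fold change of -3.75 ± 0.471, with -3.91 and -3.67 within the flow cells and -4.44 without KO 2.

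Of the metabolic enzymes, Nags had 1.631, 0.7474, 1.444 and 1.596 CPM in CFU-E KO 1 to 4, against 15.08, 17.32 and 22.45 CPM in CFU-E WT 1 to 3. KO libraries held 4 to 8 counts each and WT libraries 64 to 89. Nags had a log2 fold change of -3.82 ± 0.352, with -3.31 and -4.16 within the flow cells. In the reference annotation an exon of Nags overlaps Gm11586 on the other strand, and Gm11586 was at 0 in every CFU-E library. Aldh1a7 had 15.29, 16.82, 17.12 and 18.09 CPM in CFU-E KO 1 to 4, against 92.36, 117.7 and 100.1 CPM in CFU-E WT 1 to 3. The KO libraries were tightly grouped (coefficient of variation 6.9%) at 16.3% of the WT mean. For Aldh1a7 the log2 fold change was -2.64 ± 0.173, and -2.80 and -2.53 within the flow cells. Its paralog Aldh1a1 shares 89.5% of aligned transcript positions with it, but in the last 500 bases, where 3′ reads fall, 0 stretches of 50 bases were shared between Aldh1a7 and any other gene.

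Rnf128, the ubiquitin ligase, had 4.281, 2.803, 4.332 and 2.394 CPM in CFU-E KO 1 to 4, against 35.58, 36.58 and 46.8 CPM in CFU-E WT 1 to 3. The lowest WT library lay 8.21 times above the highest KO library. Rnf128 had a log2 fold change of -3.53 ± 0.265, with -3.08 and -3.86 within the flow cells. Cecr2, the remodelling factor, had 5.097, 2.055, 1.856 and 2.128 CPM in CFU-E KO 1 to 4, against 20.97, 24.13 and 32.19 CPM in CFU-E WT 1 to 3. KO 1, alone among KO libraries on the first flow cell, stood above the other KO libraries, and WT 3, alone among WT libraries on the second, was the highest WT library. Cecr2 had a log2 fold change of -3.14 ± 0.345, with -2.16 and -3.99 within the flow cells, -3.99 without KO 1 and -2.15 without WT 3.

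Ranked by fold among the 68 falls in CFU-E KO that were past the threshold, averaged at least 5 CPM in CFU-E WT and did not overlap, the 10 genes took places from 2 (Gna14) to 27 (Arhgef25), and the other 17 places down to Arhgef25 were held by genes outside the 10. Cnn3, a calponin, fell 34.2-fold and stood above Gna14, and Cacna1e, a calcium channel subunit, fell 15.6-fold and stood above Nags. Pvrl2, Homer2, Agpat4 and Gda, at 8.35-, 7.72-, 7.31- and 6.31-fold, followed Enpp1 and came before Aldh1a7. Arhgef25, the lowest placed of the 10, was 3.6-fold lower, and in the places after it Fgd6 was 3.57-fold, Fads3 3.48-fold and Ehd2 3.44-fold lower. Fgd6 and Ehd2 were at 3.02 and 2.95 CPM in CFU-E KO and 9.96 and 10.2 CPM in CFU-E WT, and Fads3 was at 8.88 and 34.3 CPM.

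Markers of another lineage moved in the same CFU-E libraries. The megakaryocyte and platelet list summed to 605.8 to 1258 CPM in CFU-E KO and 173.6 to 373.8 CPM in CFU-E WT. Of its 12 genes, 11 were tested and 5 rose past the threshold (Ppbp, Plek, Itga2b, Itgb3 and Gp5), beside 36 of all 10170 tested genes. Itga2b, the platelet integrin alpha chain, was at 168.0 ± 61.3 CPM in KO and 54.9 ± 16 in WT (log2 fold change 1.56 ± 0.287, adjusted p = 0.0163). Of the erythroid list, 1 of 15 tested genes fell past the threshold, the globin gene Hbb-b1, and 0 rose past it. Over all tested genes 0.708% were called lower. The median log2 fold change of the list was 0.0432 beside 0.00425 over all genes tested. GMP and granule markers summed to 31.93 to 149.6 CPM in KO and 61.41 to 136.6 CPM in WT, mast cell markers to 0.8155 to 1.682 CPM in KO and 1.894 to 3.308 CPM in WT with Fcer1a, Cma1 and Gzmb at 0, macrophage markers to 2.128 to 7.426 CPM in KO and 3.891 to 4.476 CPM in WT, and B cell markers to 2.063 to 3.991 CPM in KO and 6.597 to 9.198 CPM in WT. Stem and multipotent markers summed to 22.61 to 31.66 CPM in KO and 15.37 to 24.03 CPM in WT. The part of these cell types in the levels of the 10 genes was not tested.

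LSK cells of the same genotypes were not used to choose the genes. Of the 10, 7 passed the filter on low counts in LSK, 0 were called at an adjusted p under 0.05 (edgeR), and 3 had an unadjusted p under 0.05. Of all 17664 genes tested in LSK, 0.0793% were called and 7.88% had an unadjusted p under 0.05. The fitted log2 fold change was negative for 6 of the 7 and positive for Arhgef25, with a median of -0.703 beside 0.00445 over all genes tested. DESeq2 called 1 of the 7, Pde3b.

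Pde3b had 11.01, 12.02 and 9.76 CPM in LSK KO 1 to 3, against 23.61, 15.47, 22.92 and 15.02 CPM in LSK WT 1 to 4. It was the only 1 of the 10 whose LSK groups did not overlap, with every KO library lower, as in 4.63% of tested genes. In LSK the log2 fold change of Pde3b was -0.82 ± 0.218, with an adjusted p of 0.306 in edgeR and 0.023 in DESeq2, and adjusted p ran from 0.023 to 0.722 over all alternatives. Cecr2 had 1.691, 1.217 and 2.684 CPM in LSK KO 1 to 3, against 2.608, 4.128, 4.609 and 3.192 CPM in LSK WT 1 to 4, and KO 3 overlapped WT 1. Its log2 fold change was -0.96 ± 0.344 (unadjusted p = 0.0216, edgeR adjusted p = 0.515). Arhgef25 ran the other way, with 13.47, 4.223 and 6.448 CPM in LSK KO 1 to 3, against 2.38, 6.005, 3.988 and 3.233 CPM in LSK WT 1 to 4. KO 1 was far above the other LSK libraries, and the log2 fold change of 1.05 ± 0.435 (edgeR adjusted p = 0.605) was 0.46 without it.

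The other 4 tested genes overlapped between LSK KO and LSK WT. Enpp1 had 9.348, 21.08 and 13.21 CPM in LSK KO 1 to 3, against 15.32, 16.6, 29.45 and 22.39 CPM in LSK WT 1 to 4 (log2 fold change -0.53 ± 0.322). Gna14 had 1.484, 3.538 and 3.102 CPM in LSK KO 1 to 3, against 3.978, 4.212, 3.302 and 5.32 CPM in LSK WT 1 to 4 (-0.64 ± 0.335). In both genes KO 1 was the lowest of the 7 libraries and KO 2 lay inside the WT range. Parm1 had 3.561, 4.679 and 3.59 CPM in LSK KO 1 to 3, against 10.96, 3.503, 6.211 and 4.952 CPM in LSK WT 1 to 4 (-0.70 ± 0.377). Rnf128 had 1.395, 1.522 and 2.858 CPM in LSK KO 1 to 3, against 1.695, 5.838, 3.171 and 2.619 CPM in LSK WT 1 to 4 (-0.79 ± 0.458). Their WT libraries spread widely, with WT 1 high for Parm1 and WT 2 high for Rnf128, and edgeR adjusted p for the 4 genes lay between 0.736 and 0.812. Nags, Aldh1a7 and Spon2 were barely counted in LSK. Nags had 4, 0 and 0 counts in KO 1 to 3 and 8, 1, 6 and 3 in WT 1 to 4, Aldh1a7 had 10, 10 and 4 in KO and 6, 9, 0 and 0 in WT, and Spon2 had 12, 6 and 0 in KO and 1, 13, 0 and 0 in WT. At 22813333 counts or more per library, 3 counts are 0.0932 to 0.132 CPM, so small differences in these 3 genes were beyond reach. A fit with no count filter tested all 10 genes in LSK and called 0.

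**Figure D2:**
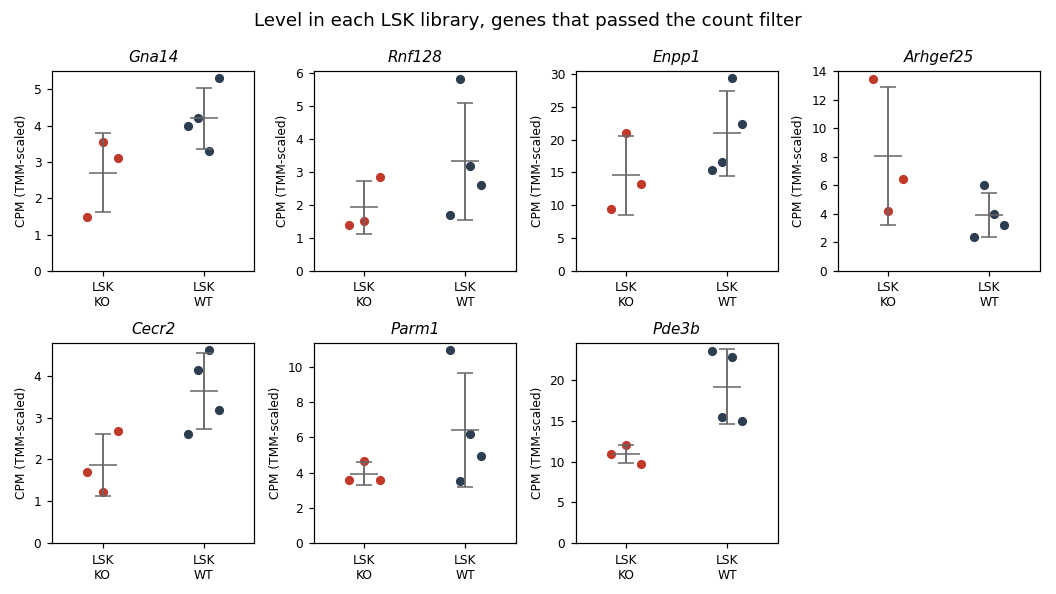
Level of the 7 genes that passed the count filter in LSK, in TMM-scaled CPM on a linear axis that differs between panels, with LSK KO libraries (red, n = 3) to the left of LSK WT libraries (dark blue, n = 4). The wide bar is the mean and the thin bar the SD; only Pde3b separates the groups, at 9.76 to 12.02 CPM in KO and 15.02 to 23.61 CPM in WT, and Arhgef25 owes its high KO mean to KO 1 at 13.47 CPM.

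Cell type markers were summed in LSK as well. Megakaryocyte and platelet markers summed to 749.3 to 843.1 CPM in LSK KO and 471.8 to 620.5 CPM in LSK WT, macrophage markers to 24.57 to 33.86 CPM in KO and 34.56 to 120.4 CPM in WT, and stem and multipotent markers to 937.8 to 1061 CPM in KO and 917.1 to 1272 CPM in WT. None of these lists had a gene past the threshold in LSK. Their part in the LSK values of the 10 genes was not tested.

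In GMP, Rnf128, Enpp1 and Pde3b passed the count filter, and 0 of the 3 were called or had an unadjusted p under 0.05 in edgeR, beside 1.45% of 9969 genes called and 17.9% with an unadjusted p under 0.05. DESeq2 and limma-voom called 0 of the 3 as well. Rnf128 had 17.84, 15.18, 15.71 and 25.71 CPM in the libraries labelled GMP KO 1 to 4, against 26.23, 8.045 and 10.6 CPM in GMP WT 1 to 3, and the KO libraries lay inside the WT range (log2 fold change 0.30 ± 0.368, adjusted p = 0.68, and 0.98 without GMP WT 1). Enpp1 had 6.689, 9.561, 8.145 and 12.85 CPM in GMP KO, against 9.601, 9.482 and 7.417 CPM in GMP WT (0.10 ± 0.319, adjusted p = 0.888). Pde3b had 11.15, 10.12, 4.945 and 6.765 CPM in GMP KO, against 18.5, 12.64 and 8.477 CPM in GMP WT, with WT 3 below 2 of the KO libraries (-0.72 ± 0.359, adjusted p = 0.298). At these standard errors a moderate change in GMP would not have been called.

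The other 7 genes gave few or no reads in GMP of either genotype. Gna14 had 1, 0, 0 and 0 counts in GMP KO 1 to 4 and 6, 9 and 1 in GMP WT 1 to 3. Arhgef25 had 3, 4, 7 and 2 counts in GMP KO and 2, 8 and 6 in GMP WT, and Aldh1a7 had 3, 2, 1 and 0 in GMP KO and 2, 6 and 2 in GMP WT. Cecr2, Parm1, Spon2 and Nags had at most 4 counts in any GMP library, and Nags had 1 count in all 7 together. With 3 counts worth 0.864 to 2.4 CPM in GMP KO and 0.682 to 0.804 CPM in GMP WT, small changes in these genes were beyond reach at this depth. A fit with no count filter tested all 10 genes in GMP and called 0. The effects in CFU-E and the other populations were not tested against each other, since the genes were chosen on the CFU-E effect.

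**Figure D3:**
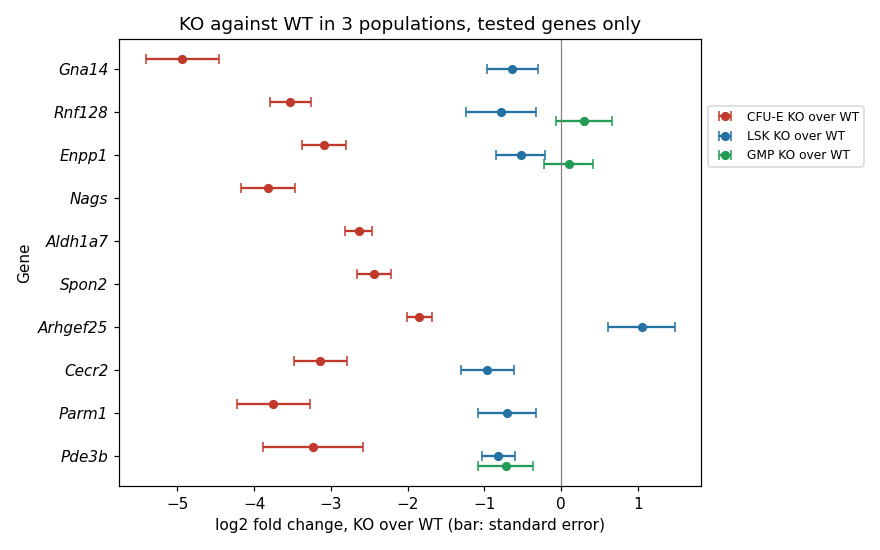
Log2 fold change of KO over WT (horizontal axis) for each gene in CFU-E (red), LSK (blue) and GMP (green), drawn only where the gene passed the count filter, with bars of 1 standard error. The CFU-E values run from -4.94 to -1.85 by the choice of genes, while the LSK values run from -0.96 to 1.05 and the GMP values from -0.72 to 0.30.

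Of the 10 genes, 9 were higher in CFU-E than in GMP of WT marrow. Wild-type CFU-E were compared with wild-type GMP, which share the library kit. CFU-E WT 3 was on the second flow cell and the GMP WT libraries on the first, and no flow cell term was fitted. The CFU-E WT libraries here are the same ones that took part in choosing the genes, so a high level in them is in part what the choice fixed. In this comparison 9 of the 10 were called higher in CFU-E WT and 0 lower, beside 25% of 10329 genes called higher. All but Rnf128, Enpp1 and Pde3b were too low to pass the count filter in GMP alone, and so entered through their CFU-E counts. For those 7 genes the direction was largely fixed in advance, and their calls and p-values are descriptions only. The 9 genes called higher had every CFU-E WT library above every GMP WT library, as did 30% of tested genes. The median log2 difference of the 10 was 4.91 beside 0.0324 over all genes. Arhgef25 was at 112.9 ± 22.6 CPM in CFU-E WT and 1.60 ± 1.02 in GMP WT (SD, n = 3 each; log2 difference 6.17 ± 0.357, edgeR adjusted p = 7.74e-12). Spon2 was at 48.5 ± 14.3 CPM in CFU-E WT and 0.520 ± 0.669 in GMP WT, and Aldh1a7 at 88.0 ± 13.5 and 1.0 ± 0.787 CPM, with log2 differences of 6.57 ± 0.508 and 6.47 ± 0.366. Nags had 236 counts over the CFU-E WT libraries and 0 over the GMP WT libraries, at least 73.3-fold higher against a floor of 3 counts over the group. These 4 genes gave at most 8 counts in any GMP WT library, so single libraries set the size of the difference: without GMP WT 2 it was 7.25 for Aldh1a7 and 8.19 for Spon2, and without GMP WT 1 it was 5.91 for Spon2.

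Cecr2, Parm1 and Gna14 came next, at 21.9 ± 5.0, 15.1 ± 1.81 and 16.7 ± 2.01 CPM in CFU-E WT and 0.875 ± 0.319, 0.368 ± 0.395 and 1.57 ± 1.29 CPM in GMP WT (log2 differences 4.62 ± 0.424, 5.21 ± 0.542 and 3.42 ± 0.45). Parm1 had a difference of 6.36 without GMP WT 1, and Gna14 of 4.09 without GMP WT 2. Enpp1 and Rnf128 were expressed on both sides. Enpp1 was at 29.7 ± 1.98 CPM in CFU-E WT and 9.75 ± 1.51 in GMP WT (1.61 ± 0.266, edgeR adjusted p = 3.32e-05). Rnf128 was at 33.7 ± 5.31 CPM in CFU-E WT and 16.6 ± 11.1 in GMP WT (1.0 ± 0.336, edgeR adjusted p = 0.0164), and its call was lost without GMP WT 2 (0.72, adjusted p = 0.107) or GMP WT 3 (0.80, adjusted p = 0.075), while without GMP WT 1 the difference was 1.68. Pde3b was the exception, at 9.62 ± 4.66 CPM in CFU-E WT and 14.6 ± 5.78 in GMP WT, with overlapping libraries (-0.62 ± 0.381, edgeR adjusted p = 0.179).

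Scaling CFU-E and GMP libraries together places the level left in CFU-E KO beside that of GMP, as a description. For Rnf128, Enpp1 and Pde3b, CFU-E KO lay below every GMP library, with means of 3.13, 3.99 and 1.29 CPM in CFU-E KO and 17.0, 10.1 and 15.1 CPM in GMP WT. For Arhgef25, Aldh1a7 and Spon2 every CFU-E KO library lay above every GMP library, with means of 33.9, 15.2 and 10.9 CPM in CFU-E KO and 1.67, 1.04 and 0.542 CPM in GMP WT. The same held by a margin of few counts for Cecr2, at 2.51 CPM in CFU-E KO and 0.912 in GMP WT, and for Nags, at 1.23 CPM in CFU-E KO and 0 in GMP WT. Gna14 and Parm1 overlapped with GMP, at 0.452 and 1.07 CPM in CFU-E KO and 1.62 and 0.374 CPM in GMP WT. The low level in CFU-E KO was thus of 3 kinds in these libraries, below GMP, near GMP, or still above it.

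**Figure D4:**
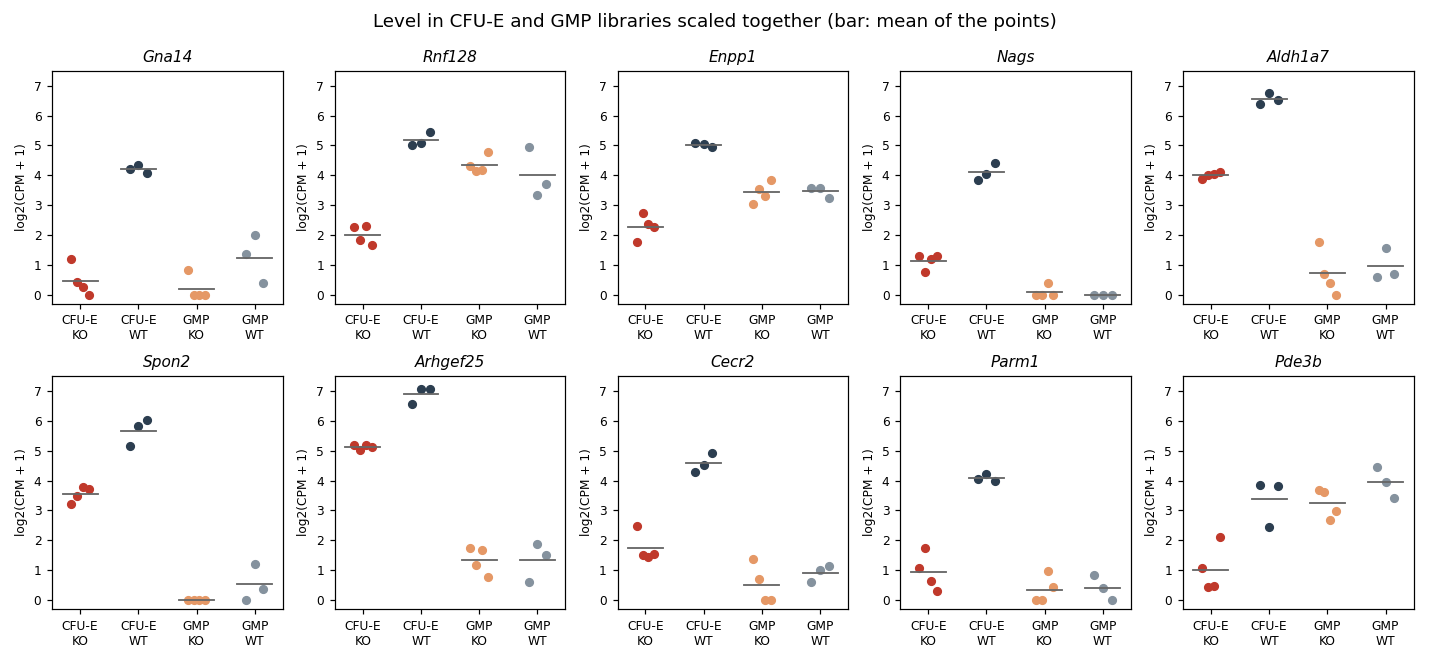
Level of each gene as log2(CPM + 1) in CFU-E KO, CFU-E WT, GMP KO and GMP WT libraries scaled together, with a point for each library and a bar at the mean of the points. Rnf128, Enpp1 and Pde3b show CFU-E KO (red) as the lowest of the groups, at means of 3.13, 3.99 and 1.29 CPM, while Aldh1a7, Spon2 and Arhgef25 show CFU-E KO between CFU-E WT and GMP.

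How alike the profiles were was measured by Pearson's r over these 14 libraries on log2(CPM + 1), of each gene with the mean standardised profile of the other 9. Nags, Gna14, Parm1 and Cecr2 followed the others most closely (r = 0.946, 0.945, 0.942 and 0.928), then Aldh1a7, Spon2, Enpp1 and Arhgef25 (0.79, 0.751, 0.727 and 0.694), Rnf128 less (0.429) and Pde3b least (0.0917). Among genes outside the 10 that averaged at least 5 CPM in CFU-E WT, the most alike in profile to their mean were Cacna1e (0.971), Cd24a (0.954), Agpat4 (0.922), Ncoa7 (0.912), Slc6a20a (0.899), Pvrl2 (0.889), Dcaf6 (0.887) and Gls2 (0.887). Cd24a, a surface antigen used to stage erythroid cells, had higher counts than the 10 and a smaller fold, with means of 186 CPM in CFU-E KO, 395 in CFU-E WT, 203 in GMP KO and 202 in GMP WT. Agpat4, an acyltransferase of phospholipid synthesis, had means of 8.81, 65.1, 1.73 and 3.56 CPM in the same order of groups. These libraries share populations, genotypes and flow cells and took part in choosing the genes, so the values of r only describe the profiles.

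The genes are spread over the genome. Gna14 and Aldh1a7 are on chromosome 19, Enpp1 and Arhgef25 on chromosome 10, Spon2 and Parm1 on chromosome 5, Nags on chromosome 11, Cecr2 on chromosome 6, Pde3b on chromosome 7 and Rnf128 on X. The protein-coding genes next to them in the RefSeq order were not used to choose them. Of 60 such genes, 3 on each side of each member, 29 were tested in CFU-E, 2 were lower past the threshold and 0 higher, which is 6.9% beside 1.06% of all tested genes. With 5 genes on each side the same count of 2 fell among 55 tested, or 3.64%, and with 1 on each side 1 of 10. With 3 genes on each side the median log2 fold change was -0.022, beside 0.00425 over all genes. It was -0.0051 with 5 on each side and 0.0701 with 1.

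The 2 that fell were D330045A20Rik, the gene just before Rnf128, and Gda, the third gene after Aldh1a7. D330045A20Rik was at 0.675 ± 0.246 CPM in CFU-E KO (n = 4) and 4.39 ± 0.268 in CFU-E WT (n = 3), with a log2 fold change of -2.77 ± 0.522 (edgeR adjusted p = 0.0188). The KO mean lies at the level of 3 counts, 0.541 to 0.821 CPM in CFU-E KO libraries, so the size of its fall rests on few reads. The annotated spans of D330045A20Rik and Rnf128 do not overlap. Gda, which encodes guanine deaminase, was at 8.74 ± 3.18 CPM in CFU-E KO and 59.6 ± 23.9 in CFU-E WT (-2.66 ± 0.311, edgeR adjusted p = 0.000607). In GMP, Gda was at 578.9 ± 74.2 CPM in KO and 537.5 ± 200 in WT (edgeR adjusted p = 0.848). GMP and granule markers summed to 52 to 119.3 CPM in CFU-E WT and 36420 to 58770 CPM in GMP WT. In CFU-E scaled alone they summed to 31.93 to 149.6 CPM in KO and 61.41 to 136.6 CPM in WT. The part of such cells in the CFU-E level of Gda was not tested. The number of neighbours called was 2 without WT 2, KO 2, KO 3 or KO 4, each left out alone, 1 without WT 1 or KO 1, and 0 without WT 3. Gnaq and Aldh1a1, tested close relatives that sit side by side with a member, did not fall with it past the threshold. Gnaq, the Gq class gene next to Gna14, was at 28.7 ± 6.16 CPM in CFU-E KO and 17.9 ± 0.892 in CFU-E WT (0.61 ± 0.231, edgeR adjusted p = 0.354). Its KO libraries all lay above its WT libraries, at 21.86 to 35.38 CPM against 16.93 to 18.67 CPM. Aldh1a1, next to Aldh1a7, was at 100.3 ± 17.9 CPM in CFU-E KO and 162.3 ± 22 in CFU-E WT (-0.57 ± 0.159, edgeR adjusted p = 0.136). Every KO library was below every WT library for Aldh1a1, as in 5.66% of tested genes. Enpp3, next to Enpp1, had too few counts to test.

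**Figure D5:**
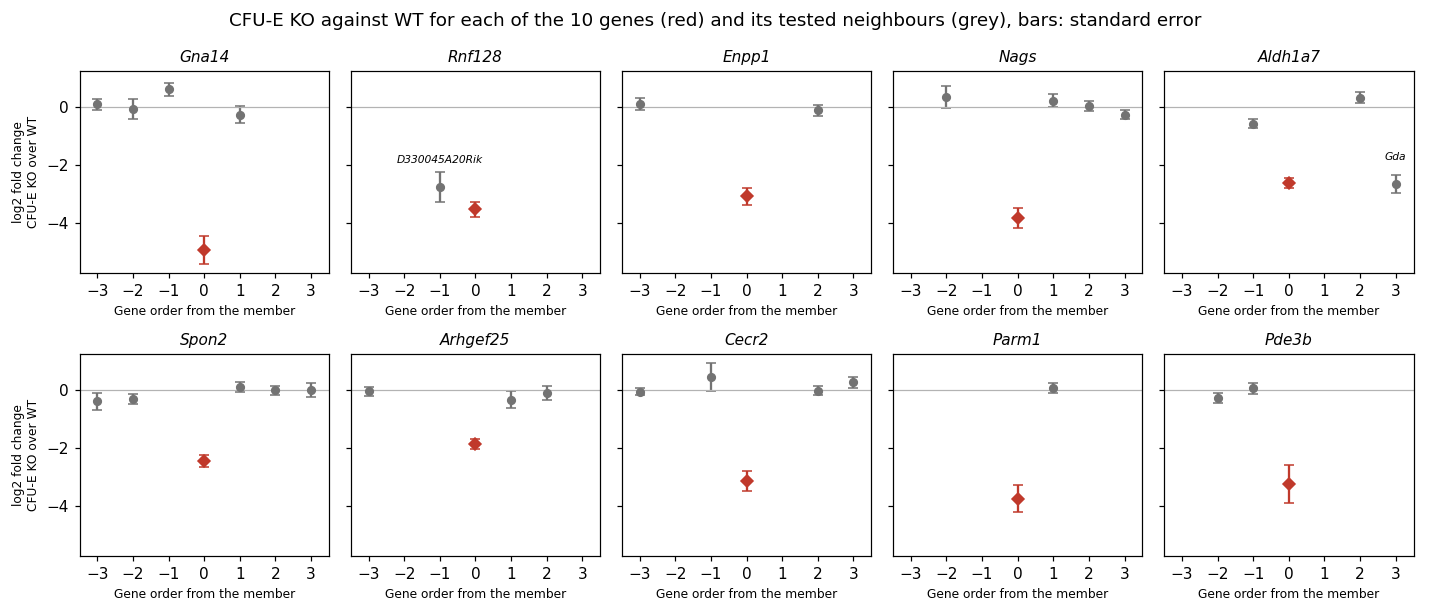
Log2 fold change of CFU-E KO over CFU-E WT (vertical axis) for each of the 10 genes (red diamond) and the tested protein-coding genes up to 3 places before or after it in chromosome order (grey; horizontal axis, gene order), with bars of 1 standard error. Only D330045A20Rik beside Rnf128, at -2.77, and Gda near Aldh1a7, at -2.66, lie far below 0 and are named.

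Relatives and partners of the 10 genes were counted over 9 lists with 93 genes outside the 10, of which 52 were tested in CFU-E. In KO 1 of the 52 fell past the threshold and 0 rose, beside 1.06% of all tested genes, and the median log2 fold change was 0.035 beside 0.00425. The gene that fell was Plcb4, a phospholipase C beta downstream of Gq class subunits, at 10.6 ± 1.56 CPM in CFU-E KO and 23.7 ± 1.16 in CFU-E WT (-1.09 ± 0.223, edgeR adjusted p = 0.0296). It was lost from the calls without WT 1, WT 3, KO 1, KO 3 or KO 4, each left out alone. Of the list of Gq class subunits and effectors 1 of 11 tested genes fell and 0 rose. The other alpha subunits Gna11 and Gna15 had log2 fold changes of 0.05 ± 0.195 and -0.36 ± 0.255. Among cyclic AMP phosphodiesterases 0 of 5 tested genes were called in CFU-E. In GMP KO 1 of 6 fell, beside 1.45% of all tested genes called in either direction. It was Pde2a, at 204.8 ± 45.4 CPM in GMP KO and 440.5 ± 53.7 in GMP WT (edgeR adjusted p = 0.0261).

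The remaining lists had no gene past the threshold in CFU-E at 3 tested ENPP and extracellular purine genes, 4 tested aldehyde dehydrogenases, 5 tested urea cycle genes and 6 tested ubiquitin ligases of the same structural class as RNF128, nor at 11 tested ISWI remodelling genes. DESeq2 likewise called 1 of the 52 relatives. Smarca5, an ISWI ATPase, was at 194.7 ± 43.8 CPM in CFU-E KO and 202.0 ± 28.5 in CFU-E WT, and Smarca1, the ISWI partner by which CECR2 complexes are best known, was at 0 in every CFU-E library. Ass1 and Asl, later urea cycle enzymes, had log2 fold changes of 0.30 ± 0.348 and 0.24 ± 0.329, and Otc was at 0 in every CFU-E library. The list of spondins and related matrix genes had 0 of 8 genes with enough counts to test. Stag1, the paralog of Stag2, had a log2 fold change of 0.25 ± 0.171 in CFU-E (edgeR adjusted p = 0.7).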

How the data were processed

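The deposited values are raw counts per gene, 30733 genes in 21 libraries, which the authors made with STAR 2.4 and HTSeq 0.6.1 on mm9, per the submitters' processing notes. No source used here gives the annotation or strand setting, which leaves genes that overlap another (Nags with Gm11586) uncertain. Groups came from the labels. The 10 genes, the gene lists and the tests were chosen with earlier results of these data known. Each comparison used edgeR 4.0.16 (R 4.3.3) on its own groups: filterByExpr (minimum count 10, minimum total 15), TMM and the quasi-likelihood F test, with p adjusted by Benjamini-Hochberg over all tested genes and a threshold of 0.05, and flow cell (from the library descriptions) as a term in CFU-E. Levels are TMM-scaled CPM, given as mean ± SD; SE is the absolute log2 fold change over the root of the F statistic. The lowest chi-square per degree of freedom between libraries of a group was 4.03, so none repeated another within counting error alone. This does not tell whether the libraries came from separate animals. The floors of 3 counts cover counting error only, while SD and SE include the spread between libraries.

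Genes outside the 10 were named by rule: Stag2 and Stag1, list genes past the threshold, direct relatives, neighbours past the threshold, the 8 most alike profiles and the falls ranked just after the lowest of the 10. Cnn3, Homer2 and marker genes were named after their values were seen. Alternatives were RLE factors, DESeq2 1.42.0, limma-voom 3.58.1, no filter, a filter of 20 counts, a replicate block, flow cell handling, a joint fit and leaving out each library. The fit was tested on simulated counts. Promoters and gene order came from RefSeq and exon overlaps from GENCODE, both of GRCm38, which is not the build of the counts.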

Additional observations from a re-analysis of the deposited data

Results flagged for a closer look

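Of 29 groups of 4 libraries examined, 4 had 1 library far from the others by Dixon's criterion. Where every other library is at 0, any count is flagged, so the usual rate of about 1 group in 20 does not apply here. Cecr2 had 5.097 CPM in CFU-E KO 1 and 1.856 to 2.128 CPM in the other CFU-E KO libraries; KO 1 is the only CFU-E KO library on its flow cell, and the log2 fold change of Cecr2 without it was -3.99. Spon2 had 0.5421 CPM in LSK WT 2, on 13 counts, and 0 to 0.0326 CPM in the other LSK WT libraries. Gna14 had 0.7432 CPM in GMP KO 1, on 1 count in the shallowest library, and 0 in the other GMP KO libraries. Nags had 0.2909 CPM in GMP KO 3, also on 1 count, and 0 in the others.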

How the results depend on the processing

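The genes were chosen on the CFU-E contrast, so their CFU-E calls describe the fits and are no measure of firmness: 10 were called, 9 with the replicate block or on the second flow cell alone, where WT is 1 library, and 6 to 10 with single libraries left out, 6 of them without WT 3. Fits of member log2 fold changes kept sign and side of the threshold in 161 of 170 cases in CFU-E, 90 of 91 in LSK, 39 of 42 in GMP and 138 of 140 in WT CFU-E against WT GMP. The 9 exceptions in CFU-E were lost calls, 5 of Pde3b, 2 of Cecr2, 1 of Nags and 1 of Parm1. In LSK the exception was DESeq2, which called 1 gene, Pde3b. In GMP the near-zero Enpp1 value turned negative with the replicate block (-0.08431), without WT 3 (-0.01449) and without KO 4 (-0.06804), within a range of -0.06804 to 0.2047 over left-out libraries. Called neighbours were 0 to 2 with single libraries left out and 1 with 1 gene on each side, and called relatives 0 to 1 with single libraries left out and 2 with no flow cell term. The cause was not tested. All genes called in CFU-E numbered 108, against 182 with DESeq2, 333 unfiltered, 234 with no flow cell term, 31 with the block, 22 without WT 3 and 53 without KO 1. In LSK they numbered 14, against 342 with DESeq2, 38 unfiltered, 0 with the block, 123, 9, 0 and 4 without WT 1 to 4, and 2, 0 and 4 without KO 1 to 3. In GMP they numbered 145, against 300 with DESeq2, 601 unfiltered, 325 with the block, 350 in the joint fit, 43 and 38 without WT 2 and 3, and 62 without KO 3. Whether replicate numbers pair the libraries could not be decided from so few libraries. Correlations of same-numbered deviations ran from -0.194 to 0.271 in CFU-E, 0.0355 to 0.0855 in LSK and -0.164 to 0.252 in GMP. Those of unlike-numbered deviations ran from -0.427 to 0.287 in CFU-E, -0.321 to 0.254 in LSK and -0.341 to 0.459 in GMP. Low counts of the genes limit GMP most, where 7 of the 10 were too low to test in the fit of GMP alone. Total counts were 1250683 to 3471881 in GMP KO and 3732769 to 4401993 in GMP WT, beside 3737659 to 5210879 in CFU-E WT. The joint fit tested all 10 and called 0.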
